A study of Mus musculus with 12 samples.

Results

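The arrays described here are the 8 labelled methyl deficient in a study of normal colon from ApcMin mice, and the question was how far these arrays differed from one another. They are 8 of the 12 arrays in the series. The labels assign 2 samples to each of 4 animals that had been fed the deficient diet for 11 weeks. The other 4 arrays, 2 samples from each of 2 animals on a methyl sufficient diet, were set beside them only to see which of the variable genes also varied there, and no diet difference was tested. All the animals carried the Min allele of Apc, a truncating mutation of the tumour suppressor that restrains Wnt signalling and that makes these mice develop intestinal polyps. Neither the sex nor the age of any animal, nor the stretch of colon taken, is stated in the labels. Arrays are named by diet, labelled animal and sample, so that D3a is the first and D3b the second sample of deficient animal 3, and S1a is the first sample of sufficient animal 1.

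Total RNA was hybridised as biotinylated cRNA to Illumina bead arrays, which give 1 intensity per probe. Levels below are background-corrected, quantile-normalised log2 signals, on which 1 unit is a 2-fold difference in signal. Of 25697 probes, 13721 had a detection p-value under 0.05 on at least 2 of the 8 arrays and were kept, and 12521 of these belong to named autosomal genes. Each of the 9374 autosomal genes was represented by its kept probe with the highest mean, and genes were ranked by the standard deviation (SD) of that probe over the 8 arrays. The 100 genes with the highest SD are the subject of what follows. Because the SD chose them, the size of their spread is a description and not a finding. The detected probes numbered 12609 to 13197 per deficient array, and any pair of these arrays correlated at 0.968 to 0.993 over the kept probes.

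A piece of colon holds several tissues. The mucosa is lined by absorptive colonocytes and mucus-secreting goblet cells over a connective tissue rich in lymphocytes, and the wall beneath is smooth muscle with enteric neurons, fat and a serosal surface. Interferons act on these cells through STAT and IRF transcription factors, which switch on antiviral enzymes, chemokines and the machinery of antigen presentation. The colon also lies against the bladder and reproductive organs in the pelvis, and the male accessory glands secrete proteins that the gut is not known for. In RNA from whole tissue, fewer cells of a type and less RNA per cell cannot be told apart.

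The labelled tissue and animals were checked first. Of the 17 colon epithelial markers kept, 16 had an SD below 0.5. Among them Krt8 at 13.88 to 14.08 and the lectin Lgals4 at 13.80 to 13.96 gave strong signal on all 8 arrays. Slc26a3, also among them, was low at 4.84 to 6.23 and was detected on 5 arrays. The labels of animals 3 and 4 went against the sex-linked genes. Eif2s3y, on the Y chromosome, measured 9.56 to 10.04 on D1a, D1b, D2a, D2b, D3a and D4b, but 4.51 on D3b and 4.56 on D4a, which is the level of an undetected probe. Kdm5d, also on the Y chromosome, measured 6.96 to 7.82 on the same 6 arrays and 4.53 and 4.55 on D3b and D4a. The brighter probe of Xist, a noncoding RNA of the inactive X chromosome in female cells, was the mirror image, at 7.12 on D3b, 6.87 on D4a and 4.93 to 5.06 elsewhere. The 2 arrays labelled as animal 3 were therefore of different sexes, and so were the 2 labelled as animal 4. Both labelled sufficient animals were split in the same way, with Eif2s3y at 4.48 on S1b and 4.47 on S3a and at 9.39 and 10.22 on S1a and S3b. The labels are kept below as names of arrays, and the SDs of the gene groups and of the lists that lead them are also given without the 4 arrays of these animals. The kept probe of Apc itself was even, with a range of 6.61 to 7.16 and an SD of 0.169.

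Over all autosomal genes the median SD was 0.201, and 9 in 10 genes had an SD below 0.378. An SD above 0.5 was reached by 385 genes and an SD above 1 by 63. The highest SD was 3.75, for Tgm4. The 100 ended at Stat2 with an SD of 0.802, and the next gene, H2-Ab1, had 0.790, so no gap marks the boundary. The median SD of the 100 was 1.05. Of these genes, 60 were detected on all 8 arrays and 22 on just 2, and for the latter the level on the other arrays is no more than an upper bound. Those 22 passed the detection filter through those 2 arrays. Counts below of genes highest on a pair of arrays are therefore partly set by that filter.

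The arrays did not pair as labelled. Each gene's deviation from its 8-array mean was correlated between arrays over the 9374 genes, which share arrays and normalisation and are not replicates. The highest value among the 28 pairs, 0.71, joined D3a with D4b. The labelled pairs of animals 2 and 1 followed at 0.43 and 0.37, then D1b with D3b at 0.34 and D3b with D4a at 0.22. The labelled pair of animal 3 stood at -0.42 and that of animal 4 at -0.43. In a principal component analysis of the same deviations, the first component held 34.7% of the variance and set D3a (25.4) and D4b (25.9) apart from the other arrays (-4.74 to -14.8). The second held 27.5% and ran from D2b (23.8) and D2a (14.9) to D3b (-13.4) and D4a (-17.6).

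**Figure D1:**
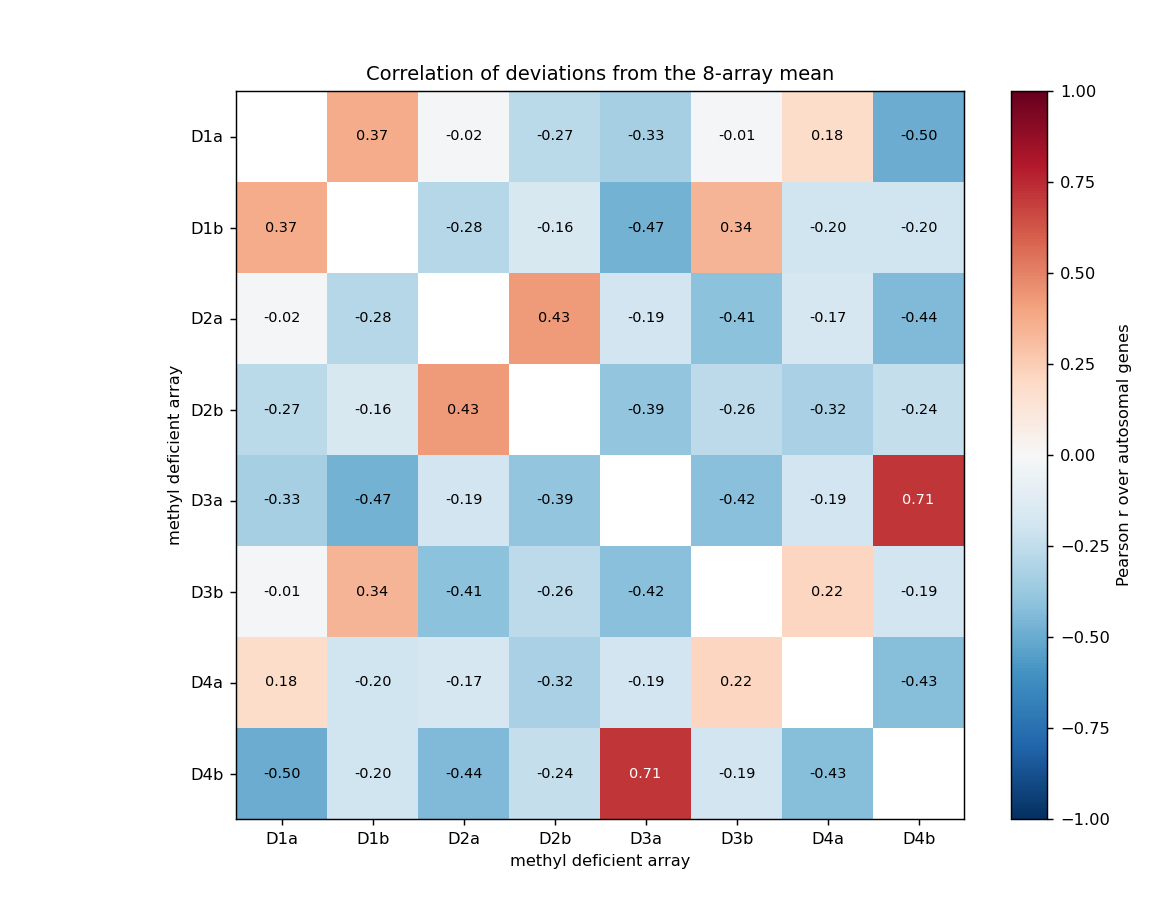
Pearson correlation between each pair of the 8 deficient arrays (D, labelled animal, sample a or b) of the deviations of 9374 autosomal genes from their 8-array mean. The warmest cell off the diagonal, 0.71, joins D3a and D4b, and the cells joining D3a with D3b (-0.42) and D4a with D4b (-0.43) are cool.

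Whether the labelled animals differed by more than their own 2 arrays was tested with a moderated F test in limma, adjusted over all 13721 kept probes by the Benjamini-Hochberg method. It called 71 probes at an adjusted p under 0.05, which is 0.517% of those tested. Of the 100 variable genes, 44 were called, but the total SD that chose them is part of the F statistic, so this share is not read further. Leaving out single arrays changed the count most for animals 1 and 2, to 32 without D2b, 40 without D2a, 45 without D1b and 46 without D1a. Without both arrays of animal 2 it was 2, and without animals 3 and 4 it was 114. The count also depends on which arrays are paired. With the arrays of animals 3 and 4 re-paired by their sex-linked genes (D3a with D4b, D3b with D4a), 1217 probes were called, or 8.87%, and all 100 genes were among them. That pairing was taken from the arrays' own values and not from the labels, so it does not establish which arrays share an animal, and nothing below is read from its calls. The labelled animals accounted for a median of 65.6% of the sum of squares of the 100 genes and 38.2% over all genes. The re-paired arrays accounted for 98.8% and 59.0%. In both fits the spread within a pair is that between 2 samples said to come from 1 animal, so the p-values do not speak of mice in general.

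The 100 genes fell into few patterns. Average linkage on 1 minus the correlation over the 8 arrays, cut at 0.5, gave 3 groups of at least 4 genes that held 99 of the 100. The first, of 46 genes, was high on D3a and D4b. The second, of 41 genes, was high on both arrays of animal 2. The third, of 12 genes, was low on D3a and D4b and in part high on D3b and D4a. Svs4 stood alone. The groups were made from the values, so their separation is a description.

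**Figure D2:**
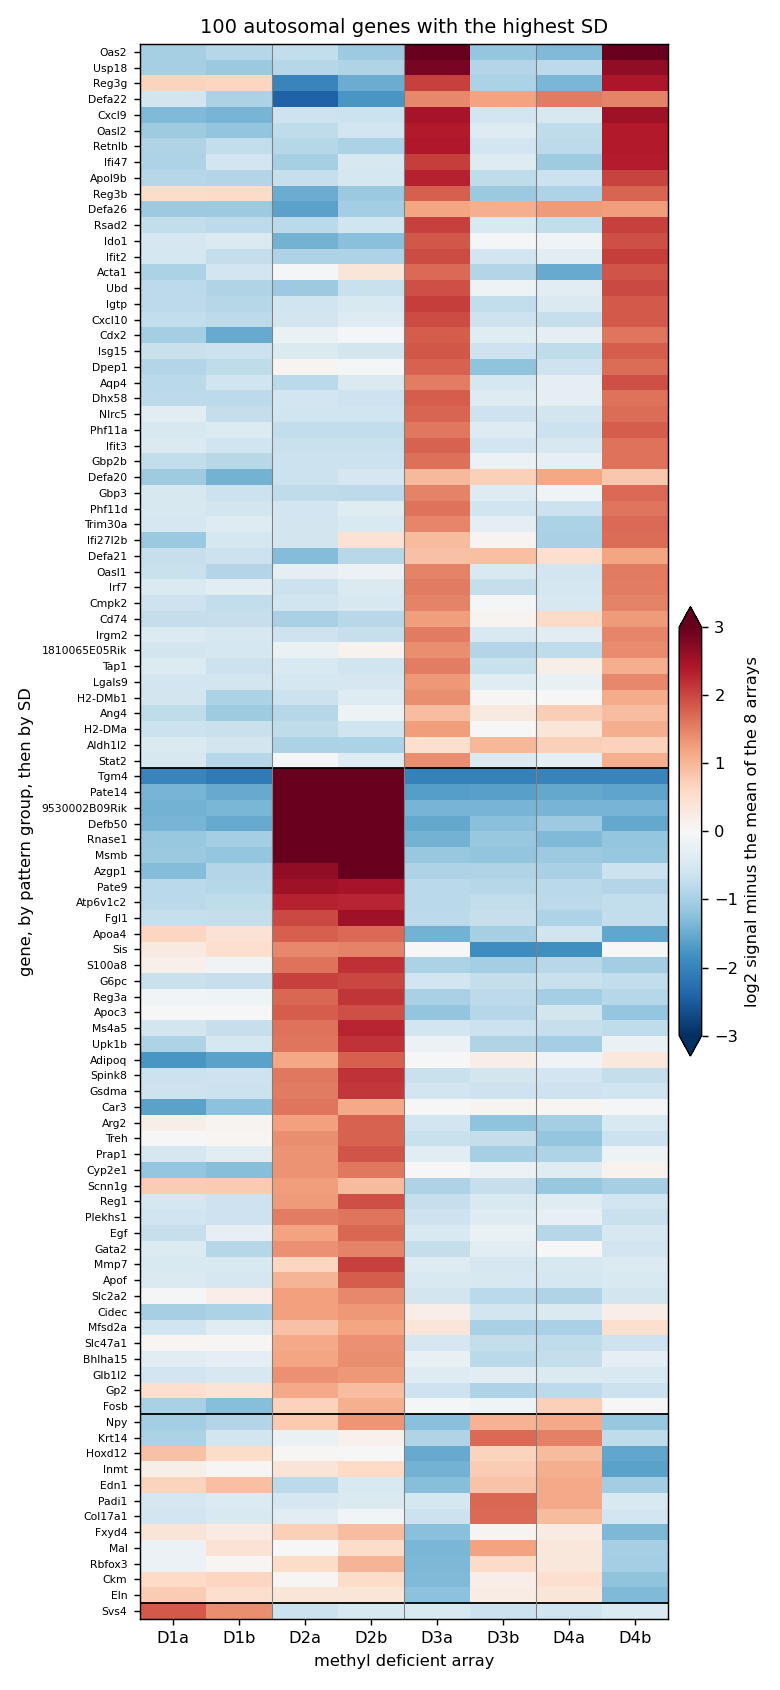
Heat map of the 100 autosomal genes with the highest SD over the 8 deficient arrays. Rows are genes, by pattern group (solid lines) and then by SD, columns are arrays, and colour is the log2 signal minus the gene's 8-array mean, clipped at 3 units either way. The top block of 46 genes is warm on D3a and D4b, the second of 41 genes on D2a and D2b, and the third of 12 genes is cool on D3a and D4b.

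The first group was led by genes that interferons induce. The median SD of its 46 genes was 1.07, and the median correlation between its members was 0.92. Of the 100 genes, 41 were higher on both D3a and D4b than on every other deficient array, a pattern held by 875 of all 9374 autosomal genes (9.33%). The median SD of the group was 1.14 without animal 2 and 0.178 without the 4 arrays of animals 3 and 4. The group was chosen and clustered on these arrays, so that fall is a description. Some members kept a high SD without animals 3 and 4, among them Reg3g at 1.39, Reg3b at 1.09 and Defa22 at 0.84.

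Antiviral effectors stood at its head. Oas2, which makes the oligoadenylates that activate RNase L, measured 9.42 on D3a and 9.25 on D4b and 4.93 to 5.53 on the other 6 arrays. Usp18, the protease that removes ISG15 from proteins and damps type I interferon receptor signalling, measured 10.48 and 10.31 against 6.54 to 6.86. Oasl2, an OAS-like antiviral protein, measured 12.01 on D3a, nearly the same on D4b, and 8.46 to 9.24 on the rest. In each case the 2 high arrays lay over 2 units above every other. Rsad2, the radical SAM enzyme viperin, measured 9.63 on both D3a and D4b and 6.78 to 7.13 elsewhere. Ifit2, which restrains translation of viral RNA, measured 9.71 and 9.83 against 6.82 to 7.40. Apol9b, an apolipoprotein L, was detected on 2 arrays alone, at 7.85 on D3a and 7.58 on D4b. The other 6 arrays, D3b and D4a among them, kept within 1 unit of each other for every gene in this paragraph.

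The list of type I interferon induced genes was the most variable of the 48 gene lists examined. All 25 of its measured members were highest on D3a and D4b, from Oas2 with an SD of 1.91 to Ifih1, an RNA sensor, with 0.34. The median SD of the list was 0.80 against 0.20 for all autosomal genes, and 13 members were among the 100. Without animals 3 and 4 its median SD was 0.16. None of the 25 was called between labelled animals. The labelled pairs of animals 3 and 4 each join a high and a low array, so that test was not suited to this pattern and nothing is read from it. Stat2 and Irf7, the transcription factors that carry the interferon signal, had the same pattern. Irf7 measured 8.56 on D3a and 8.53 on D4b and 6.30 to 6.69 elsewhere.

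Chemokines and GTPases known as interferon gamma targets had the same pattern. Of 24 measured members, 23 were highest on D3a and D4b, 11 were among the 100, and the median SD was 0.77 (0.16 without animals 3 and 4). None was called between labelled animals, a test with the same limit for this list. Cxcl9, a chemokine that draws CXCR3-bearing T cells, measured 8.87 and 8.93 on these 2 arrays and no more than 5.91 elsewhere. Cxcl10, which binds the same receptor, was detected on the same 2 arrays alone, at 7.38 and 7.26. For neither chemokine did these 2 arrays overlap with the rest. Among the immunity-related GTPases, which attack the vacuoles of intracellular pathogens, Ifi47 measured 9.54 and 9.83 against 7.08 or less. Igtp, of the same family, measured 10.51 and 10.28, with every other array at least 2 units lower. Their relative Irgm1 was the exception to the size of the difference, with an SD of 0.16 at a high level of 11.97 to 12.38. Ido1, which breaks down tryptophan, measured 10.62 and 10.68 against 7.33 to 8.69, and animal 2 was the lowest. Ubd, a ubiquitin-like modifier, measured 9.65 on D3a, a like level on D4b and 6.64 to 7.58 elsewhere.

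Antigen presentation genes had a related pattern. Of 10 measured MHC class II genes, 8 were highest on D3a and D4b, 3 were among the 100, and the median SD was 0.74 (0.18 without animals 3 and 4). Cd74, the invariant chain that escorts class II molecules, was graded rather than split. It measured 13.06 and 13.09 on D3a and D4b, 11.88 and 12.38 on D3b and D4a, and 10.83 to 11.12 on the 4 arrays of animals 1 and 2. The peptide-loading subunits H2-DMa and H2-DMb1 had the same 3 steps. H2-DMa measured 10.29 and 10.14, then 9.02 and 9.40, then 8.28 to 8.44. H2-DMb1 measured 8.37 and 8.09, then 7.01 and 6.98, then 6.04 to 6.58. All 4 arrays of animals 3 and 4 lay above the rest for 17 of the 100 genes, against 242 of 9374 (2.58%). The class II transactivator Ciita, outside the 100 with an SD of 0.75, measured 7.39 and 7.40 against 5.62 to 6.11.

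Promoter sequence was read for these genes because many shared 1 pattern and 1 known class of regulator. The motif searched was GAAANNGAAA on both strands, the core of the interferon-stimulated response element to which IRF factors bind. The window was 250 bases before to 50 after each RefSeq start site (GRCm38.p6). Of the 46 genes of the first group, 35 matched a promoter, and 13 of these (37.1%) held the motif. It was present in 4.02% of 25748 autosomal genes, in 2 of 29 matched genes of the second group and in 1 of 11 of the third. In the list of type I interferon induced genes 10 of 16 held it, in the interferon gamma list 9 of 19, and among MHC class II genes 0 of 7. A match is a description of these letters and not evidence of binding. The promoters of 4 genes are printed, 5′ to 3′ on the gene's strand from RefSeq GRCm38.p6, with the matches in capitals. They are the 4 genes of the group with the highest SD among those that held the motif. The match is read on the printed strand in Igtp and Cxcl10 and on the opposite strand in Rsad2, and Apol9b has a pair of overlapping matches on the opposite strand.
Igtp, chr11:58199306-58199605, plus strand: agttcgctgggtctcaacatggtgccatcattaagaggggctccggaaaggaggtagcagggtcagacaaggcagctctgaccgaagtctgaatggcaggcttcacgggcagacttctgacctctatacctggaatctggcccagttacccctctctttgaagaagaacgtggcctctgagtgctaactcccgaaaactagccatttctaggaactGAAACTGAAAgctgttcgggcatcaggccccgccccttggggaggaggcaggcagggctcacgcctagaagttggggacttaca
Apol9b, chr15:77728822-77729121, plus strand: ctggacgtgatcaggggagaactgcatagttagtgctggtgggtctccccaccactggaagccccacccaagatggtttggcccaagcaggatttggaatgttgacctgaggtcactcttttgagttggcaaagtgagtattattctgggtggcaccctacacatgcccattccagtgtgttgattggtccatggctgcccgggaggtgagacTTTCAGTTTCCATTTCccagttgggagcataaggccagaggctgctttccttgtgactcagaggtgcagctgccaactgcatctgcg
Rsad2, chr12:26456403-26456702, minus strand: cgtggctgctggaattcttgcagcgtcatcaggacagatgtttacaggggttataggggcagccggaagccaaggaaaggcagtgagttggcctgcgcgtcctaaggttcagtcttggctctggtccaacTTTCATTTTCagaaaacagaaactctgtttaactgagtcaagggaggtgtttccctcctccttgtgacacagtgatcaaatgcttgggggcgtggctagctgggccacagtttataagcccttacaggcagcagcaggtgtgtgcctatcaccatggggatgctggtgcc
Cxcl10, chr5:92348840-92349139, minus strand: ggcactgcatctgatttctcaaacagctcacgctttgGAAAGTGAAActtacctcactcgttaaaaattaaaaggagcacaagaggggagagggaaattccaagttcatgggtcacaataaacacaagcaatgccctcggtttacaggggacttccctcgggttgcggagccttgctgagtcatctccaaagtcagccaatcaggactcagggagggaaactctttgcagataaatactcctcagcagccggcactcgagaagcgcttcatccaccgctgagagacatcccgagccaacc
The match began 34 bases before the start site in Igtp, 37 and 31 before it in Apol9b, 120 in Rsad2 and 213 in Cxcl10.

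Epithelial antimicrobial genes also belonged to the first group, but not in 1 pattern. Reg3g, a C-type lectin that kills Gram-positive bacteria, measured 8.67 on D3a and 9.05 on D4b, 7.28 and 7.25 on animal 1, and 4.64 to 5.66 on the rest. Reg3b, its neighbour in function, had the same order at higher levels. It measured 12.22 and 12.16 on D3a and D4b, 10.97 and 10.99 on animal 1, and 8.93 to 9.50 on D2a, D2b, D3b and D4a. Both therefore took 3 levels across the arrays, and animal 1 was between. Retnlb, a goblet cell product active against worms and bacteria, was near background on 6 arrays (5.06 to 5.43) and measured 8.38 on D4b and a like level on D3a. Retnlb was detected on all 4 sufficient arrays, at up to 8.84.

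The alpha-defensins, peptides of Paneth cells, were high on all 4 arrays of animals 3 and 4 instead. Defa22 measured 10.92, 10.68, 11.04 and 10.98 on D3a, D3b, D4a and D4b, 8.94 and 8.54 on animal 1, and 7.05 and 7.74 on animal 2. Defa26 measured 9.55 to 9.74 on the 4 arrays of animals 3 and 4 and 6.86 to 7.43 on the other 4. Defa20 and Defa21 were also highest on these 4 arrays, as was Ang4, a microbicidal ribonuclease, at up to 7.68 on animals 3 and 4 and 5.68 to 6.59 on the others. Aldh1l2, a mitochondrial enzyme of folate metabolism, measured 6.87 to 7.35 on these 4 arrays and 5.40 to 5.92 on the others. The 4 defensins and Aldh1l2 were the 5 of the 46 genes called between labelled animals, against 0.517% of all probes. Their adjusted p-values in limma ran from 0.000625 for Defa22 to 0.0139 for Defa21. Nothing is read from these calls, since the SD that chose the genes enters the test. Defensin genes are nearly identical copies, and a probe for 1 may read others, so these 4 are not independent. With the tree cut at 0.3 the 4 defensins, Ang4 and Aldh1l2 formed a group of their own.

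Other members of the first group are not known chiefly as interferon targets. Cdx2, the transcription factor that specifies intestinal epithelium, measured 10.88 and 10.67 on D3a and D4b and 7.55 to 9.02 elsewhere, while its relative Cdx1 had an SD of 0.14. Aqp4, a water channel, measured 11.55 and 11.95 against 9.22 to 9.74. Acta1, the actin of skeletal muscle, measured 9.58 and 9.77 against 6.37 to 8.23, although Ckm, the creatine kinase of skeletal muscle, was lowest on the same 2 arrays. Dpep1, a brush border dipeptidase, measured 9.88 and 9.78 against 6.91 to 8.19. More broadly, 6 of 17 colon epithelial markers and 6 of 13 goblet markers were highest on D3a and D4b, against 9.33% of all autosomal genes. Among markers of lymphocytes, 8 of 14 T and NK cell genes were highest there and 2 were lowest, but just 1 of 15 B and plasma cell genes was highest there. Itgae, the integrin of intraepithelial lymphocytes, measured 8.36 and 8.41 against 6.79 to 7.67. The mean level of the 14 T and NK cell genes was 6.67 on each of D3a and D4b and 6.17 to 6.51 on the others, and its part in the interferon pattern was not tested.

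**Figure D3:**
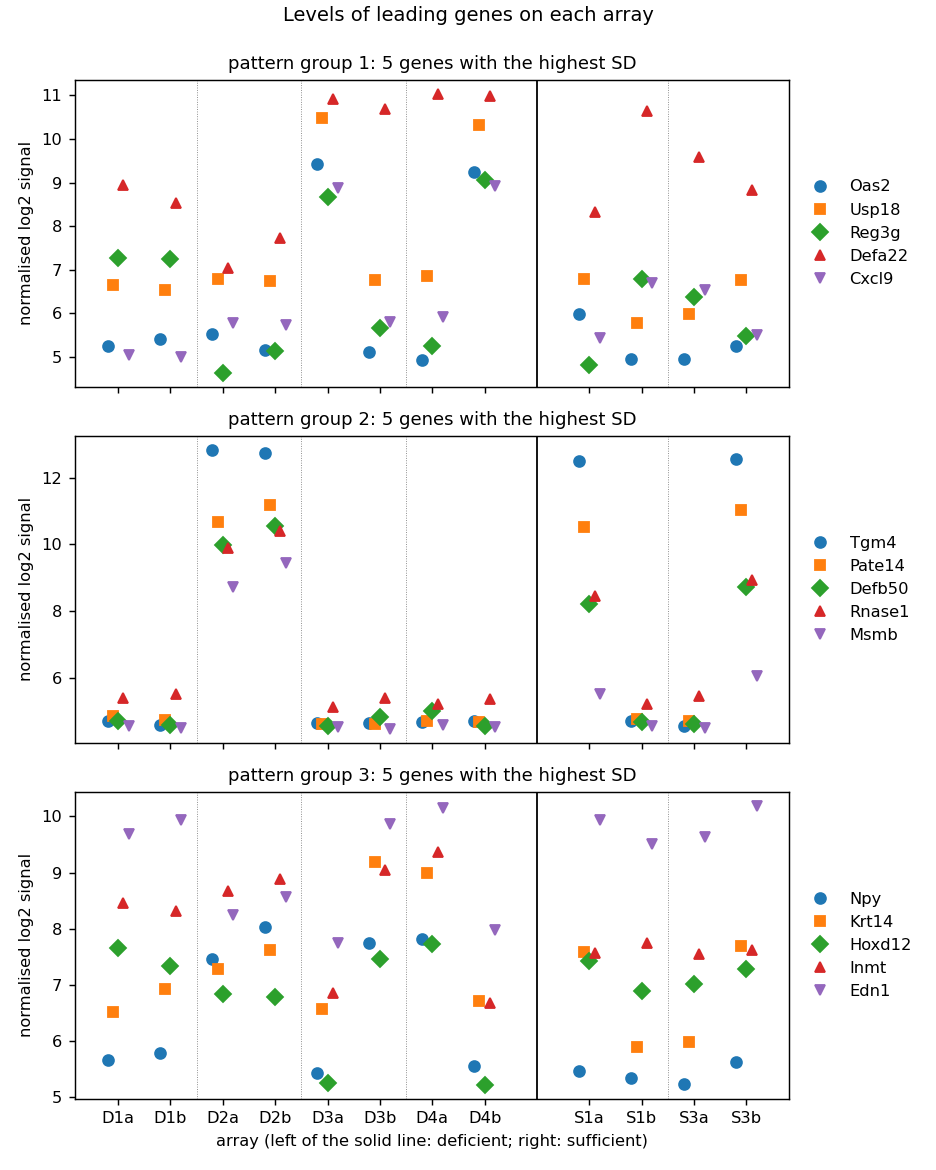
Normalised log2 signal (vertical axis) of the 5 named genes with the highest SD in each pattern group, on the 8 deficient arrays (left of the solid line) and the 4 sufficient arrays (right). Oas2 and Usp18 stand high on D3a and D4b alone, Tgm4 and Pate14 on D2a, D2b, S1a and S3b, and Hoxd12 is lowest on D3a and D4b.

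The second group was high on both arrays of animal 2 and held the highest SDs of all. The median SD of its 41 genes was 1.15 and the median correlation between members 0.91. Animal 2 lay above every other deficient array for 41 of the 100 genes, against 708 of 9374 (7.55%), and below every other for 12, against 549 (5.86%). Of the 41 genes of the group, 38 were called between labelled animals, against 0.517% of all probes, and nothing is read from this since the SD that chose them enters the test. The exceptions were Sis, Mmp7 and Mfsd2a. Without animal 2 the median SD of the group was 0.262, and without animals 3 and 4 it was 1.26. Just 15 of the 41 were detected on all 8 arrays, so many of these genes were at background in the other animals.

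Secreted proteins of the male accessory glands led it. Tgm4, the prostate transglutaminase that forms the copulatory plug, measured 12.83 on D2a and 12.73 on D2b and 4.59 to 4.72 on the other 6 arrays, where it was not detected. Pate14, of a family named for prostate and testis expression, measured 10.66 and 11.17 against 4.62 to 4.87. Msmb, the microseminoprotein of prostatic fluid, measured 8.72 and 9.44 against 4.49 to 4.59. Each of these genes ran from background on 6 arrays to clear signal on both arrays of animal 2. Defb50, a beta-defensin, measured 9.98 and 10.55 on animal 2 and 4.57 to 5.01 elsewhere. Pate9 measured 7.86 and 7.80 against 4.44 to 4.52. Azgp1, a zinc-binding glycoprotein of seminal and other fluids, was detected on all 8 arrays and measured 9.64 and 9.94 against 5.67 to 6.32.

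The list of male accessory gland genes had 18 of 32 members on the array kept. Of these, 8 were highest on animal 2, against 7.55% of all autosomal genes, and 7 were among the 100. The median SD of the list was 0.52 (0.18 without animal 2 and 0.46 without animals 3 and 4). Members detected on D2a and D2b alone, Tgm4 among them, were kept through those arrays, so the count of 8 is a description. The list's mean level was 7.64 and 7.86 on D2a and D2b and 6.24 to 6.46 on the other 6. The rest of the list did not follow. Spink1, which colon also expresses, was even at 13.66 to 14.04, and Hoxb13, a prostate and hindgut factor, stayed near background at 5.24 to 5.55. Svs4, a seminal vesicle protein, was the 1 variable gene outside the groups, with 7.08 and 6.64 on D1a and D1b and 4.60 to 4.82 on the other 6. Svs5, also of the seminal vesicle, was again highest on animal 1, at 6.06 and 5.83 against 4.86 to 5.07. The prostate genes and these 2 seminal vesicle genes were thus high in different animals. D3a and D4b, which carried Y chromosome signal, measured 4.67 and 4.71 for Tgm4 and 4.79 and 4.82 for Svs4. The part of tissue taken beside the colon in these values was not tested.

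Genes of other neighbouring or distant tissues were high on animal 2 as well. Rnase1, the pancreatic-type ribonuclease, measured 9.90 and 10.40 against 5.13 to 5.52. Upk1b, a uroplakin of bladder and serosal surfaces, measured 7.36 and 7.93 against 4.72 to 5.56. Of the 5 bladder genes measured, 2 were highest on animal 2, and of 7 mesothelial genes, 3. The same held for 3 of 10 pancreatic genes, with 1 lowest there, and for 4 of 7 liver genes. Over all autosomal genes the share highest on animal 2 was 7.55%. A gene detected on D2a and D2b alone passed the filter through those arrays and would be highest there in any case. The lists are also small and overlap. Upk1b is in both the bladder and mesothelial lists, and Cyp2e1 in both the liver and adipocyte lists. The counts are therefore a description, and no tissue is read from them. Fgl1, a fibrinogen-like protein of liver, measured 8.28 and 8.84, with every other array over 2 units lower. Atp6v1c2, a proton pump subunit, measured 7.75 and 7.72 against 4.64 to 4.71. Ms4a5, a membrane protein, and Spink8, a Kazal-type protease inhibitor, were detected on D2a and D2b alone. Their higher level, on D2b, was 7.64 for Ms4a5 and 7.50 for Spink8. On the sufficient arrays Rnase1 and Fgl1 were high on S1a and S3b, as Tgm4 was. Rnase1 measured 8.45 and 8.94 there against 5.24 and 5.47 on S1b and S3a. Fgl1 measured 7.83 and 8.40 against 5.83 and 5.87. The tissue source of these genes was not tested.

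A second theme in this group was nutrient absorption and lipoprotein assembly as in the small intestine, and here animal 2 was not set against a flat background. Of 14 enterocyte and brush border genes measured, 9 were highest on animal 2 and 6 were lowest on D3b and D4a, and the median SD was 0.43 (0.41 without animals 3 and 4). Over all autosomal genes these shares were 7.55% and 6.92%. Apoa4, an apolipoprotein of chylomicrons, measured 10.77 and 10.66 on animal 2, 9.61 and 9.41 on animal 1, and 7.41 to 8.37 on the 4 arrays of animals 3 and 4. Apoc3, which slows lipoprotein clearance, had the same order with 9.97 and 10.09, then 8.16 and 8.14, then 6.97 to 7.59. Sis, the sucrase of the brush border, split the 4 arrays further. It measured 11.26 and 11.30 on animal 2, 10.08 and 10.32 on animal 1, 9.83 and 9.82 on D3a and D4b, and 7.97 and 7.99 on D3b and D4a. G6pc, the phosphatase that releases free glucose, was detected on animal 2 alone, at 7.50 and 7.45. All 4 arrays of animals 3 and 4 lay below the rest for 14 of the 100 genes, against 273 of 9374 (2.91%). Scnn1g, the gamma subunit of the sodium channel of distal colon, was one of them, at 7.56 to 7.99 against 9.44 to 9.94. D3b and D4a lay below all others for 13 of the 100, against 649 of 9374 (6.92%).

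The leading fat genes took 3 levels across the animals. Of 17 adipocyte genes measured, 9 were highest on animal 2 and 7 lowest on animal 1, and the median SD was 0.56 (0.37 without animal 2 and 0.25 without animals 3 and 4). The share of all autosomal genes highest on animal 2 was 7.55%. Animal 1 lay below all others for 20 of the 100 genes, against 340 of 9374 (3.63%). Adipoq, the adipocyte hormone adiponectin, measured 8.78 and 9.41 on animal 2, 7.51 to 7.94 on animals 3 and 4, and 5.89 and 6.02 on animal 1. Car3, an abundant carbonic anhydrase of fat, measured 8.34 and 7.86, then 6.68 to 6.82, then 5.12 and 5.51. Cyp2e1, expressed in fat and liver, measured 8.60 and 8.84, then 6.90 to 7.36, then 5.99 and 6.10. Lep, the hormone leptin, was detected on animal 2 alone at 6.24 and 6.18. Acly, Fasn and Pnpla2, lipid enzymes that many cells use, had SDs of 0.10 to 0.17. In Adipoq, Car3 and Cyp2e1 the 4 arrays of animals 3 and 4 lay within 0.5 units of each other. The same held for Defa22, Defa26, Defa20 and Aldh1l2 of the first group, but not for Oas2 or Usp18. Cidec, which grouped with the 3 fat genes when the tree was cut at 0.3, was less even. It measured 5.24 on D3b and 5.37 on D4a against 5.99 on D4b. The share of fat in the samples was not measured otherwise.

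An inflammatory and a regenerating-family gene of the second group had the order of Apoa4. S100a8, a subunit of the neutrophil protein calprotectin, measured 7.32 and 7.88 on animal 2, 5.84 and 5.58 on animal 1 and 4.65 to 4.85 on the remaining 4 arrays. Its partner S100a9 was detected on animal 2 alone, at 6.11 and 6.72. Reg3a measured 8.86 and 9.28 on animal 2, 7.04 and 6.99 on animal 1 and 6.11 to 6.34 on the rest. Its relatives Reg3b and Reg3g were lowest on animal 2, so the family was split between patterns. Reg1 was detected on animal 2 alone, at 6.52 and 7.19.

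The third group was small and held genes of muscle, matrix, nerve and squamous epithelium. The median SD of its 12 genes was 0.876, the median correlation between members 0.73, and 0 were called between labelled animals. The labelled pairs of animals 3 and 4 straddle this pattern too, so nothing is read from that count. Without animals 3 and 4 the median SD was 0.322, and without animal 2 it was 1.00. With the tree cut at 0.3 the group shrank to 7 genes. Krt14, Padi1, Col17a1, Npy and Edn1 then belonged to no group. D3a and D4b lay below all others for 13 of the 100 genes, against 1174 of 9374 (12.5%), which is close to the share over all genes. D3b and D4a lay above all others for 5 of the 100, against 560 of 9374 (5.97%).

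A few squamous epithelial genes were highest on D3b and D4a. Krt14, the keratin of basal squamous cells, measured 9.18 on D3b and 8.99 on D4a, 7.29 and 7.61 on animal 2, and 6.52 to 6.93 on the other 4. Col17a1, a hemidesmosome collagen of the same cells, was detected on those 2 arrays alone, at 6.92 and 6.19. Padi1, which citrullinates keratin, was likewise detected there alone, at 6.80 and 6.22. Of the 13 squamous genes measured, 3 were highest on D3b and D4a, 2 were highest on animal 2 and 1 was lowest on D3b and D4a. Over all autosomal genes these shares were 5.97%, 7.55% and 6.92%. The 3 included the mucosal keratin Krt13 at 5.29 and 5.30. The others included Krt10 and Lgals7, with SDs of 0.18 and 0.09. On the sufficient arrays Krt14 was higher on S1a and S3b (7.59 and 7.69), which carried Y signal, than on S1b and S3a (5.90 and 5.99).

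Some position-marking genes were low on D3a and D4b. Hoxd12, a posterior Hox gene, measured 5.27 and 5.22 there and 6.79 to 7.73 on the other 6. Hoxd10 measured 8.93 and 8.96 against 10.31 to 10.77, and Hoxd9 5.22 and 5.56 against 5.99 to 6.54. Hoxa13 and Hoxb13, which also mark the hindgut, had SDs of 0.18 and 0.10. Of 24 regional identity genes measured, 8 were lowest on D3a and D4b and 3 were highest there, Cdx2 among them. Over all autosomal genes these shares were 12.5% and 9.33%. Npy, a neuropeptide of sympathetic and enteric neurons, measured 7.46 to 8.02 on D2a, D2b, D3b and D4a and 5.44 to 5.80 on the other 4, so its split crossed that of Hoxd12. Edn1, the vasoconstrictor endothelin, measured 7.75 and 7.98 on D3a and D4b, 8.24 and 8.56 on animal 2 and 9.69 to 10.15 on the rest. Inmt, which methylates indoles with S-adenosylmethionine, measured 6.86 and 6.67 against 8.31 to 9.37.

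The wider lists of muscle and matrix genes had the same direction. Of 22 smooth muscle genes measured, 19 were lowest on D3a and D4b, against 12.5% of all autosomal genes. The median SD was 0.44 (0.18 without animals 3 and 4) and 0 were among the 100, since each difference was modest. Hspb6, a small heat shock protein of smooth muscle, measured 10.53 and 10.72 against 11.76 to 12.28, and the myosin Myh11 measured 12.05 and 11.80 against 12.55 to 13.29. Acta2 and Actg2, the smooth muscle actins, lay at 13.47 to 14.36 with SDs of 0.05 and 0.09, near the top of the scale, where bead signal can saturate. Of 29 fibroblast and matrix genes, 20 were lowest on the same 2 arrays. Eln, the elastin of vessel and organ walls, measured 8.46 and 8.36 against 9.90 to 10.44. Of 16 enteric neuron and glia genes, 8 were lowest there. The mean level of the smooth muscle list was 9.53 and 9.52 on D3a and D4b and 10.17 to 10.49 on the other arrays. The interferon genes were high where these muscle and matrix genes were low, and the part of tissue proportion in either was not tested.

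**Figure D4:**
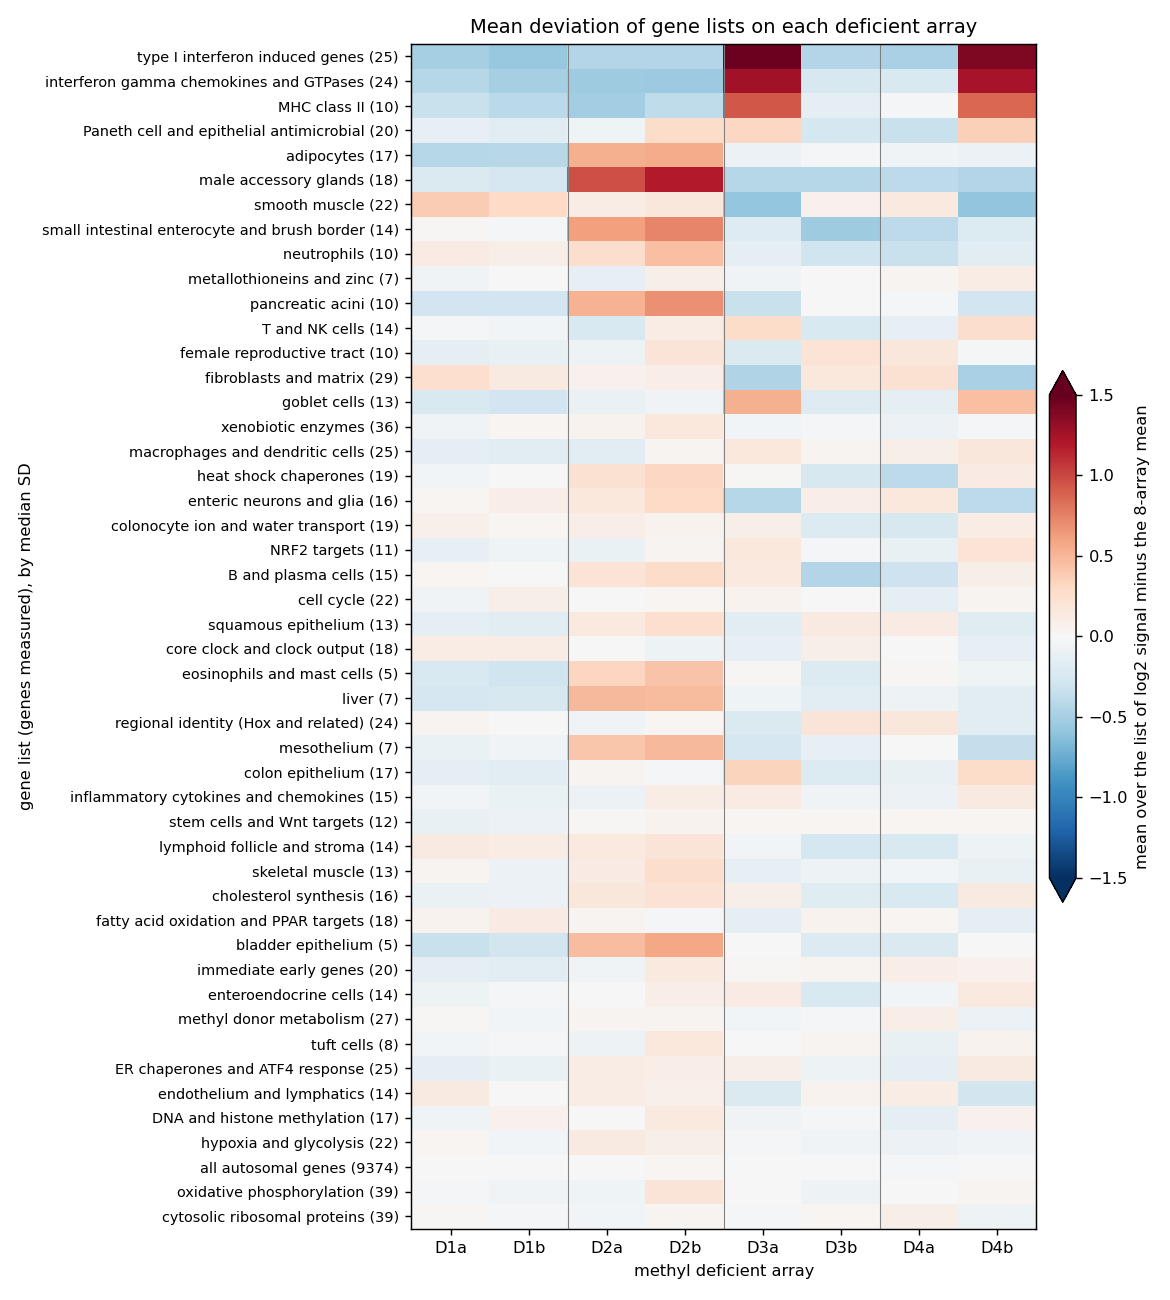
Mean deviation of each gene list with at least 5 measured genes (rows, number of genes in brackets, ordered by median SD) on each deficient array (columns). Colour is the mean over the list of log2 signal minus the 8-array mean. Type I interferon genes are warm on D3a and D4b, male accessory gland and adipocyte genes on D2a and D2b, smooth muscle genes are cool on D3a and D4b, and ribosomal protein genes at the bottom are nearly blank.

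Arrays D3b and D4a, the 2 without Y chromosome signal, had a lower side of their own. Of 15 B and plasma cell genes measured, 11 were lowest there, although none reached the 100. The share of all autosomal genes lowest on these 2 arrays was 6.92%. Fcmr, the IgM receptor of B cells, measured 7.05 and 6.90 on D3b and D4a and 7.96 to 8.30 on the other 6, and the B cell receptor subunit Cd79b measured 6.49 and 6.92 against 7.15 to 7.64. Mzb1, a plasma cell chaperone, was the most variable of the list at 5.35 to 6.95 and was highest on animal 2. Heat shock chaperones were also low there, with 10 of 19 lowest on the same arrays. Hsph1, a chaperone of the HSP110 family, measured 7.84 on D4a, 8.70 on D3b and 8.89 to 10.07 on the other 6 arrays. Its D3b level was thus close to the lowest of those 6.

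Ribosomal protein and oxidative phosphorylation genes hardly varied. The 39 cytosolic ribosomal protein genes had a median SD of 0.11 and the 39 oxidative phosphorylation genes 0.14, both below the 0.20 of all genes. The 27 genes of methyl donor metabolism had a median SD of 0.25, above that of all genes, with 1 among the 100, Inmt. Ahcy, which clears S-adenosylhomocysteine, had an SD of 0.10. Cth and Cbs, the transsulphuration enzymes, were highest on D3a and D4b, Cth at 7.23 and 7.40 against 5.56 to 6.67 and Cbs at 7.64 and 7.42 against 6.48 to 7.16. The folate receptor Folr2 was lowest there, at 5.25 and 5.16 against 6.16 to 6.88. Of 17 DNA and histone methylation genes the median SD was 0.21, near the 0.20 of all genes, and 0 were among the 100. The most variable was Uhrf1, which guides maintenance methylation, at 8.05 to 10.23 with the lowest levels on D4a and D3b.

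The 4 sufficient arrays took no part in choosing the genes. Over these arrays the 100 had a median SD of 0.475, against 0.179 for all the autosomal genes kept. When genes were filtered and ranked afresh on the sufficient arrays, 9132 were ranked, and 92 of the 100 were among these. Of the 100, 22 were again among the 100 highest, which is 22% of each list. Of these 22, 14 belonged to the second group, 7 to the first and 1 to the third. Tgm4 measured 12.51 on S1a and 12.57 on S3b, and 4.73 and 4.57 on S1b and S3a. Pate14 measured 10.51 and 11.04 on S1a and S3b against 4.79 and 4.72. The high arrays were those with Y chromosome signal, yet the deficient arrays D1a, D1b, D3a and D4b carried Y signal without Tgm4. Among the interferon genes, Oas2 measured 4.96 to 5.99 and Rsad2 7.36 to 7.72. Oasl2 and Ido1 were again among the 100 highest, and both were higher on S1a and S3b than on S1b and S3a. Oasl2 measured 9.12 and 9.23 against 7.64 and 7.68, and Ido1 8.28 and 8.37 against 6.80 and 6.87. Cxcl9 and Cxcl10 were higher on S1b and S3a than on S1a and S3b. Cxcl9 measured 6.53 on S3a and more on S1b, against 5.43 on S1a, and Cxcl10 5.79 and 6.02 against 4.90 and 4.86, while Oas2 and Usp18 had the opposite order. The median SD on the sufficient arrays was 0.352 for the first group, 0.645 for the second and 0.318 for the third.

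**Figure D5:**
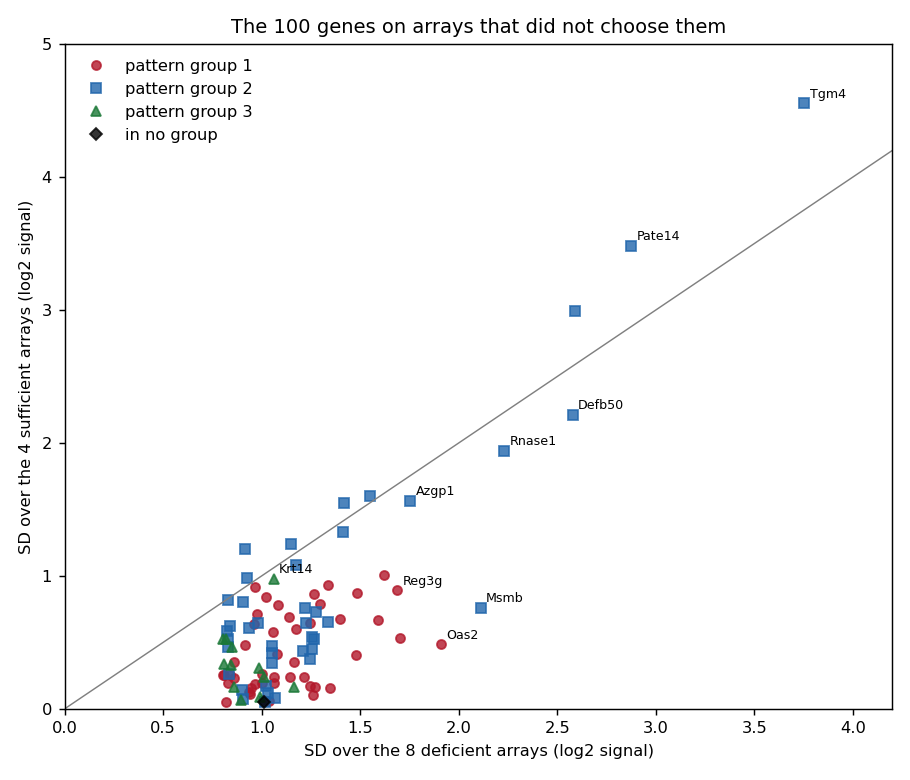
SD of each of the 100 genes over the 8 deficient arrays (horizontal axis, log2 signal) against its SD over the 4 sufficient arrays (vertical axis), coloured by pattern group, with the line of equality. Genes enter by a high value on the horizontal axis, so that axis has a lower limit. Tgm4, Pate14 and other genes of the second group lie near or above the line, and most genes of the other groups lie below it.

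Second probes of the same genes took no part in the ranking, but they had to pass the same detection filter on these arrays. Of the 100 genes, 18 had another kept probe, 22 probes in all. Across the 8 arrays the median correlation of these with the chosen probe was 0.99, and 18 of the 22 exceeded 0.9. The 4 others were Mal at 0.88, Defa20 at 0.85, Reg3b at 0.80 and Slc47a1 at -0.04. The second probes of Reg3b and Slc47a1 were dim, detected on 2 and 3 of the 8 arrays. Those of Phf11a and Col17a1 were also detected on 2 alone. No like value for genes outside the 100 is set beside these correlations, so they are a description.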

How the data were processed

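The authors deposited a scanner table with a bead intensity per probe and array on a linear scale, without normalisation as far as the values show. Per the file headers, a detection p-value stands beside each intensity. The authors also deposited a series matrix on a log2 scale with each probe centred on its median over the 12 arrays. Each matrix column correlated best with its own array (0.957 to 0.979), and how it was normalised is not given in the sources used here. Table columns were tied to samples by their names, with a prime read as the second sample of an animal. Per the labels' protocols, the kits were Trizol for extraction, RNeasy with DNase I for clean-up and MessageAmp for labelling.

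Signals of the 12 arrays were background-corrected and quantile-normalised by the neqc function of limma 3.58.1 under R 4.3.3. It added an offset of 16, gave log2 values and inferred its negative controls from detection p-values. Median raw signals of the deficient arrays ran from 59.4 to 70.8. Of 25697 probes, 23978 had 1 gene symbol in the platform annotation and 23962 of these were found in RefSeq (GRCm38.p6), which gave the chromosomes. Of the 13721 kept probes, 1200 were not of a named autosomal gene, and 799 of these are unnamed here. Several kept probes were present for 2308 genes. The F test used lmFit and eBayes on the 8 arrays with labelled animal as the factor, 4 residual degrees of freedom and 4.50 prior ones, and Benjamini-Hochberg adjustment at 0.05. The code was tested on simulated data.

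Genes named are the 40 with the highest SD, the 5 highest of each pattern group, the 3 highest of each list with at least 3 of the 100, and Xist, Eif2s3y, Kdm5d and Apc. Ddx3y was not analysed here. Of the 100, 2 carry provisional symbols and are not named in the text. Not every selected gene is described, and genes outside this rule were named after their values were seen. The members, the 48 lists and the re-pairing by sex-linked genes were chosen with earlier results of these data known. The number of arrays and animals limits the precision of every value. Alternatives in normalisation, detection filter, arrays, pairing, variance model, probe choice and tree cut were run with pandas 2.3.3 and scipy 1.17.1 in Python 3.11.15.

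The sample numbers 1 and 2 recur in every labelled animal, and whether they pair samples across animals was checked. The correlation of deviations from the animal mean between same-numbered samples was 0.20 to 0.33 for 5 pairs of animals and -0.45 for animals 3 and 4, so it was not positive in every pair and the numbers were used as names. The labels of animals 3 and 4 are themselves in doubt, and the check does not settle whether the numbers pair samples.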

Additional observations from a re-analysis of the deposited data

How the results depend on the processing

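The count of 71 probes that differed between labelled animals depended on the choices made. It was 45 with the series matrix values, 24 with detection required on all 8 arrays (which tested fewer probes) and 40 with no detection filter. With the arrays of animals 3 and 4 re-paired by sex-linked genes it was 1217. Without animals 3 and 4 it was 114 and without animal 2 it was 2, both settings chosen after seeing the data. Leaving out single arrays gave 32 to 67, with 32 without D2b, 40 without D2a, 45 without D1b and 46 without D1a. With the sample number as a replicate block the count was 59, and the labels give no source shared by samples of 1 number. A variance trend with robust settings gave 78, autosomal probes alone 65, quantile normalisation without background correction 64 and neqc on the 8 arrays alone 71. The cause of the changes was not tested.

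Of the 100 genes, 47 were again among the 100 highest with the series matrix, 60 with detection on all 8 arrays, 63 without animal 2 and 46 without animals 3 and 4, and 86 to 97 with single arrays left out. The 63 genes with an SD above 1 became 35 with quantile normalisation without background correction, 191 with the series matrix, 36 with detection on all 8 arrays and 38 without animals 3 and 4, and 49 to 69 with single arrays left out. The 3 pattern groups became 5 with the tree cut at 0.3 and 4 with 200 genes. Of the 528 SD values of the 48 selected genes under alternatives, 76 moved by more than the gene's SD within labelled animals. That SD is wide for genes that differ between the 2 arrays of animal 3 or 4, so this count depends on the doubted labels. Reg3g, from 1.69 to 2.91 with the series matrix, did not count as moved. Tgm4, from 3.75 to 3.95 without D3a, did. No stability is read from the count. Of the 528, 13 moved by over 1.5 times, all of them upward with the series matrix. For the 22 genes detected on 2 arrays the low levels are set by the background correction.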
